A study of Homo sapiens with 6 samples.

Results

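The alpha-2-macroglobulin (A2M) family and its receptor were followed at the RNA level through 6 genes that were chosen by name, out of 23228 genes in the count tables. They are A2M, PZP, A2ML1 and CD109 of the macroglobulin family, the receptor gene LRP1 and the gene of the receptor's chaperone, LRPAP1. The genes were proposed with their values in this contrast already known, so their levels and fold changes are given as a description without a test. The libraries came from Hep3B, an established hepatocellular carcinoma cell line grown in RPMI medium, in 3 libraries of control cells and 3 labelled PELP1-KD. Control cells carried a lentiviral non-targeted shRNA, and PELP1-KD cells a lentiviral shRNA against PELP1, a scaffold protein that binds nuclear receptors. The sample names give the first of 2 PELP1 shRNAs, whereas the treatment text names both. Cells of the PELP1-KD line were stable under puromycin and were pooled clones, and nothing says that the 3 libraries of a group came from separate cultures, so p-values measure only the spread between these libraries, which may be technical.

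A2M is a large plasma glycoprotein made mainly by hepatocytes, and in the liver also by other cells. It offers a bait region to proteases of many classes, changes shape once it is cut, and encloses the protease. The changed form exposes a site for LRP1, a large endocytic receptor of the LDL receptor family that clears the complex into hepatocytes and other cells. PZP is a close relative that rises in plasma during pregnancy, A2ML1 is a protease inhibitor of stratified epithelia, and CD109 is a family member held on the cell surface by a lipid anchor that also acts as a TGF-beta co-receptor. LRPAP1 encodes RAP, which stays in the endoplasmic reticulum and keeps newly made LRP1 from binding its ligands too early.

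The promoters of these genes differ in base composition, and 4 of them are shown because they set the receptor genes, which were well expressed, beside the 2 family genes with almost no reads. Each is the 250 bases before the gene's start, from RefSeq on GRCh38.p14, where 5 of the 6 genes matched, all but A2M. The choice used the levels in these data and lacks A2M, the gene of the 6 with the highest control level. A link between base composition and level was not tested. Capitals mark matches to a searched motif on either strand. LRP1 lies at chr12:57128233-57128482 on the plus strand, LRPAP1 at chr4:3532423-3532672 on the minus strand, PZP at chr12:9208396-9208645 on the minus strand and A2ML1 at chr12:8822371-8822620 on the plus strand.
LRP1: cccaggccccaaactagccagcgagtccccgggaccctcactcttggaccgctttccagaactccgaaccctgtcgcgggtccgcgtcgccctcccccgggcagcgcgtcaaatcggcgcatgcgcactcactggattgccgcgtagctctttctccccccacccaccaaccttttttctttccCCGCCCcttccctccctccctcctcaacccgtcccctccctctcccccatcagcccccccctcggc
LRPAP1: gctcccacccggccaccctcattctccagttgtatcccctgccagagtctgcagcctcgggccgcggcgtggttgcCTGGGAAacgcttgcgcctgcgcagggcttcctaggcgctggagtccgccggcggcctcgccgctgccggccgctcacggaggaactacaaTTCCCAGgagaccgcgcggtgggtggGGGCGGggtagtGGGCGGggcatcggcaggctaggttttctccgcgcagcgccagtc
PZP: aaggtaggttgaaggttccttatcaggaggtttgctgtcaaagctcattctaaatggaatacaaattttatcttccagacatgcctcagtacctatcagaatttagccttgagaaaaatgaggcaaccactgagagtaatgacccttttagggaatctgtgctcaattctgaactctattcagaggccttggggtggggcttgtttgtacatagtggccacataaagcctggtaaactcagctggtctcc
A2ML1: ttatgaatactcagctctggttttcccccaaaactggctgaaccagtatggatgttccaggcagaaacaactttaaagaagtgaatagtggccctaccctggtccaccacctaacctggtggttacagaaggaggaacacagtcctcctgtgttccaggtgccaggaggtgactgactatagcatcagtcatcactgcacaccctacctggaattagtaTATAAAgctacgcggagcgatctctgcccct

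The LRP1 promoter had 67.6% G and C and 20 CpG pairs, and that of LRPAP1 had 70.8% and 26. PZP, in contrast, had 43.2% and 0 CpG pairs, and A2ML1 had 49.2% and 3. The promoter of CD109, at chr6:73695953-73696202 on the plus strand, lay between them with 54.4% and 11 CpG pairs. The median over 27305 promoters of the same length was 57.6% G and C, so LRP1 and LRPAP1 were above it and the other 3 below. Of 7 motifs searched on both strands, the matches were a GC box (GGGCGG) in LRP1, 2 GC boxes and 2 acute-phase elements (CTGGGAA) in LRPAP1, and a TATA box (TATAAA) in A2ML1. No match overlapped another. The LRP1 match began 66 bases before the start and was on the reverse strand. In LRPAP1 the acute-phase letters began 174 and 83 bases before the start, the second of these on the reverse strand, and the GC boxes began at 57 and 45. The TATA box of A2ML1 began 31 bases before its start, and PZP and CD109 held none of the 7. Of all promoters, 42.2% held the GC box letters, 9.33% the acute-phase letters and 11.2% the TATA box letters. The other motifs were those of STAT (TTCNNNGAA, in 6.76% of promoters), the CCAAT box (CCAAT, 33%), a nuclear receptor half-site (AGGTCA, 12.2%) and FOXA (TGTTTAC, 3.01%). These are counts of letters in 1 window and not binding sites.

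The libraries held 26758363 to 34456542 reads assigned to genes, and 14537 genes had enough reads to be tested. Normalized reads are reads divided by the library's size after TMM scaling (a trimmed mean that brings libraries to a common scale), and RPKM is the same quantity per 1000 exon bases and scaled to the total reads, which allows genes to be compared. PELP1, the targeted gene, had 4893, 4914 and 5102 normalized reads in control against 4421, 4825 and 4840 in the libraries labelled PELP1-KD. Its level was 94.5% of control (log2 fold change −0.08, SE 0.04, adjusted p = 0.101, edgeR quasi-likelihood test), and the adjusted p was 0.0106 with the replicate number as a block. It was 0.018 without PELP1-KD replicate 3 and 0.424 without PELP1-KD replicate 1, where the log2 fold change was −0.04. The RNA thus gives little check of the label. At the protein level, the paper reports reduced PELP1 in knockdown Hep3B cells by Western blot, and in their xenografts by antibody staining. Each direction below compares the libraries labelled PELP1-KD with control. Over all tested genes 53.6% passed an adjusted p of 0.05, with 26.8% higher and 26.8% lower, and in 58.8% the 2 groups did not overlap. Hepatocyte markers were high in every library, with a summed level of 10420 to 10640 RPKM in control and 9605 to 9769 RPKM in the libraries labelled PELP1-KD, and none of the 8 was at 0. All 8 were called, 3 higher and 5 lower, and the 2 most abundant went opposite ways, ALB (albumin) with a log2 fold change of −0.61 and AFP (alpha-fetoprotein) with one of 0.62.

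A2M itself showed the largest fold difference of the 4 tested genes. Its transcript lies at chr12:9220304-9268558 (hg19, minus strand) in 36 exons. Control libraries had 18720, 19007 and 19289 normalized reads of A2M, and libraries labelled PELP1-KD had 2256, 2377 and 2398. All 3 control libraries were far above all 3 libraries labelled PELP1-KD, and within each group the libraries lay close together. The mean was 19005 ± 285 normalized reads in control and 2344 ± 76.4 in the other group (SD, n = 3), 8.11-fold lower, with −3.02 (SE 0.04) as the log2 fold change. A2M RNA was therefore at 12.3% of control. Of the 14537 tested genes, 7.65% were called and at least 2-fold changed, and A2M held rank 134 from the lowest log2 fold change. Per length, its level moved from rank 568 to rank 4748 of all genes in the tables, from 130 to 16.0 RPKM. As a share of the reads on genes it was 0.0593% to 0.0609% in control and 0.00727% to 0.00761% in the libraries labelled PELP1-KD. In bulk RNA, fewer cells with the transcript and less transcript per cell cannot be told apart.

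**Figure D1:**
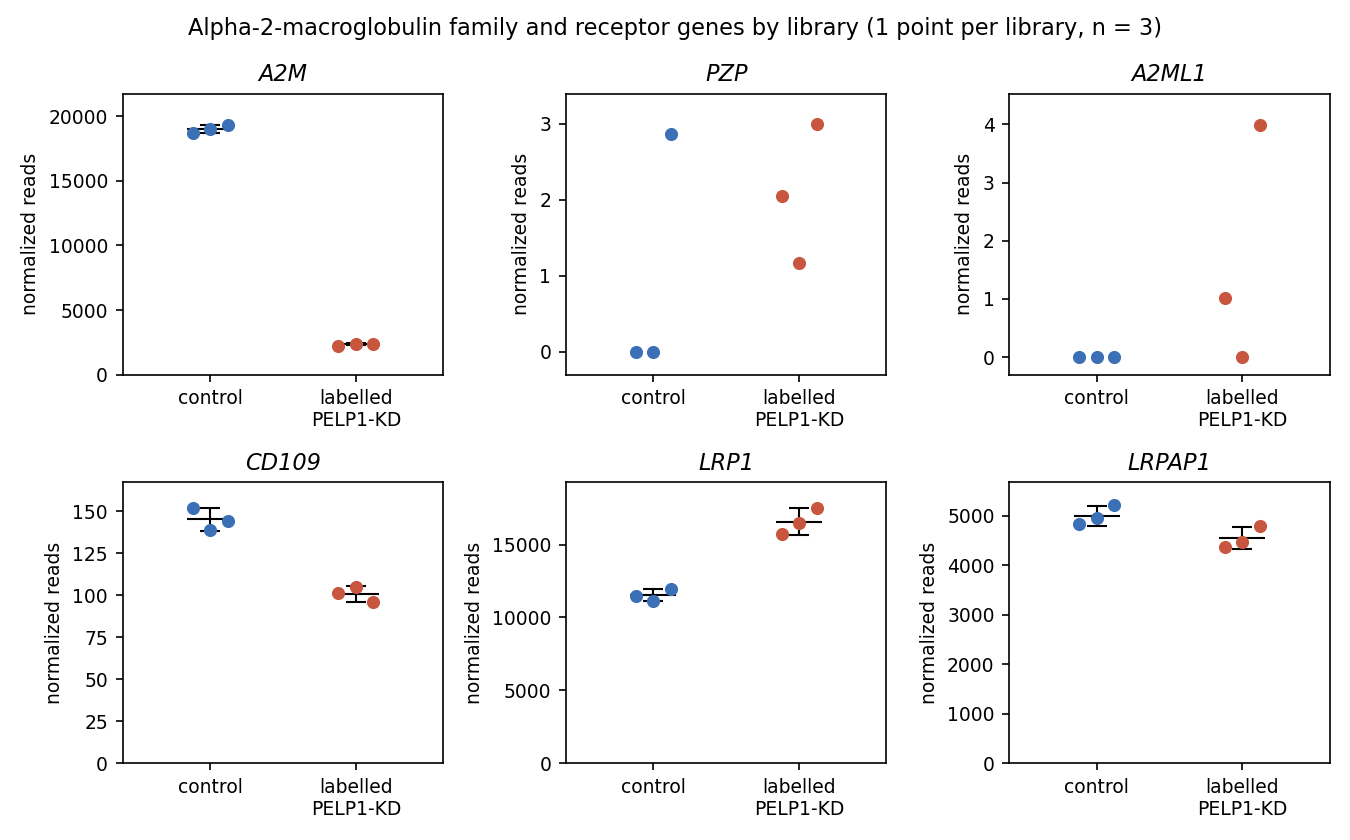
Normalized reads (vertical axis, each panel from about 0) of the 6 genes in the 3 control libraries and the 3 libraries labelled PELP1-KD, 1 point per library; bars are the mean and SD, which are left out for PZP and A2ML1. A2M lies at 18720 to 19289 in control and at 2256 to 2398 in the other group, LRP1 is higher in all 3 libraries labelled PELP1-KD, LRPAP1 and CD109 are lower, and PZP and A2ML1 do not go above 4 normalized reads.

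Other transcripts at the A2M locus had few reads. An antisense gene, LOC144571, overlaps 132 exon bases of A2M on the opposite strand. It had 28.4, 39.3 and 56.3 normalized reads in control against 51.2, 49.0 and 43.9 in the libraries labelled PELP1-KD, with overlap between the groups (log2 fold change 0.22, adjusted p = 0.449, edgeR). The pseudogene A2MP1 had between 0 and 3 reads in each library. Counting was by strand, and no exon base of the 6 genes was shared with another gene on the same strand. The reads of LOC144571 were at most 59 in each library, against at least 2037 for A2M.

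PZP and A2ML1, the relatives on either side of A2M, were close to undetected. PZP, 32.9 kb from A2M at chr12:9301436-9360966 (hg19, minus strand), had 0, 0 and 3 reads in control against 2, 1 and 3 in the libraries labelled PELP1-KD. The groups overlapped. Scaled for library size, the ratio was 2.25 with a 95% interval of 0.480 to 13.9, which covers counting error only, so no difference was detectable at this depth. A2ML1, 190.9 kb away on the other side at chr12:8975150-9029377 (hg19, plus strand), had 0 reads in all 3 control libraries, whereas those labelled PELP1-KD had 1, 0 and 4. A count of 0 in control allows up to 0.00578 RPKM. Of the 5 reads in the libraries labelled PELP1-KD, 4 were in 1 library and another library had 0, so no difference is read from them. Neither gene had enough reads to be tested.

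CD109, the surface-anchored family member, was expressed at a low level. It lies at chr6:74405508-74538041 (hg19, plus strand) in 33 exons. Control libraries had 152, 139 and 144 normalized reads of CD109 and libraries labelled PELP1-KD had 101, 105 and 95.9. All control libraries were above all of the others. The mean was 145 ± 6.66 in control and 101 ± 4.6 in the other group (SD, n = 3). CD109 was thus at 69.5% of control, with −0.53 (SE 0.12) as its log2 fold change. In RPKM the mean levels were 0.488 and 0.339, far below those of A2M and LRP1 in either group.

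LRP1, the receptor that clears A2M complexes, was higher in the libraries labelled PELP1-KD. The gene lies at chr12:57522282-57607125 (hg19, plus strand), on the same chromosome as A2M but distant from it, in 89 exons. Normalized reads were 11461, 11131 and 11962 in control against 15689, 16466 and 17537 in the libraries labelled PELP1-KD. The groups did not overlap, and the lowest library labelled PELP1-KD was well above the highest control. The mean was 11518 ± 418 in control and 16564 ± 928 in the other group (SD, n = 3), 1.44-fold higher, with a log2 fold change of 0.52 (SE 0.04). Of 14537 log2 fold changes, 8.64% were higher than that of LRP1. Its level per length went from 24.6 to 35.4 RPKM.

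LRPAP1, the chaperone gene, did not follow its client. It lies at chr4:3505324-3534224 (hg19, minus strand) in 8 exons. Normalized reads were 4833, 4945 and 5215 in control against 4361, 4474 and 4795 in the libraries labelled PELP1-KD. The groups did not overlap, but the highest library labelled PELP1-KD and the lowest control were separated by less than either group's SD. The mean was 4998 ± 197 in control and 4543 ± 225 in the other group (SD, n = 3), 90.9% of control, with a log2 fold change of −0.14 (SE 0.04). Of the 6 genes, 4 thus had groups without overlap, of which 3 were lower and LRP1 was higher. As the genes were chosen with this contrast known, nothing is read from that count against the 58.8% of all tested genes.

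The order of the 6 genes by level changed at its top. In control the mean RPKM ran A2M, LRP1, LRPAP1, CD109, PZP and A2ML1, and in the libraries labelled PELP1-KD LRP1 came before A2M. Neighbours in both orders were separated in every library, except PZP and A2ML1, whose ranges overlapped. The RPKM of A2M over that of LRP1 was 5.16 to 5.46 in the control libraries, whereas in the other group it was 0.438 to 0.462. Ligand RNA was thus above receptor RNA in 3 of 3 control libraries and below it in 3 of 3 of the others. A2M and LRPAP1, at 15.4 to 16.4 and 13.2 to 14.5 RPKM, were near each other in the libraries labelled PELP1-KD. The ratio of LRP1 to LRPAP1, receptor over chaperone, was 1.59 to 1.68 in control and 2.55 to 2.60 in the libraries labelled PELP1-KD.

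Within their families, A2M and LRP1 changed places in opposite directions. The superfamily of A2M also holds complement C3 and C5, which share its fold. Among the 7 superfamily genes with a level per length, A2M made up 24.6% to 24.8% of the summed RPKM in control, second to C3. In the libraries labelled PELP1-KD it made up 4.79% to 5.05% and came after C3 and C5. CD109 made up 0.0894% to 0.0985% of that sum in control and 0.0972% to 0.110% in the libraries labelled PELP1-KD. LRP1 made up 9.95% to 10.2% of the summed RPKM of the 13 LDL receptor family genes compared here in control and 14.7% to 14.8% in the libraries labelled PELP1-KD. Of these 13 it held rank 4 in control, where its range overlapped that of LRP10 just above it. In the other group it held rank 3, after LRP3 and LRP5, and its 33.5 to 37.5 RPKM lay above the 25.7 to 28.1 RPKM of LRP10. LRP3 and LRP10 are named here after their values were seen.

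**Figure D2:**
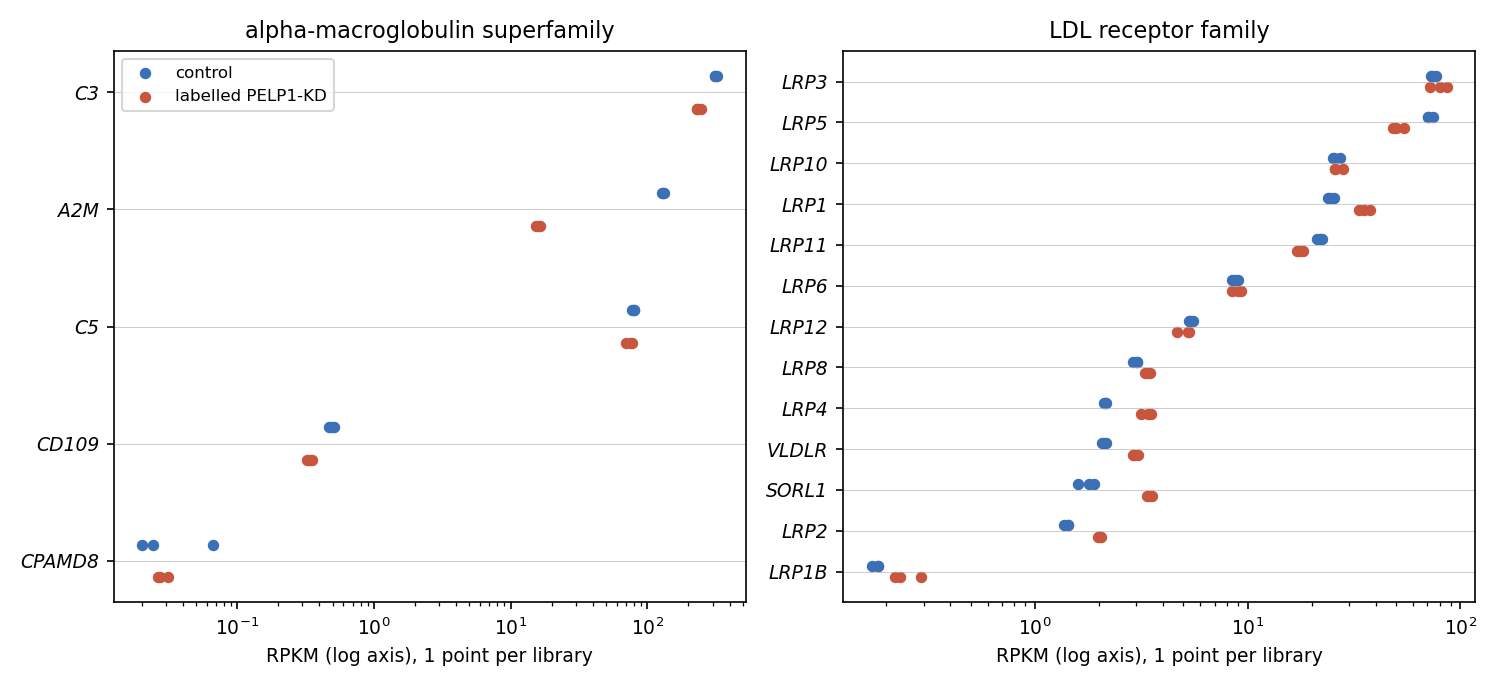
Level per length (RPKM, log axis) of alpha-macroglobulin superfamily genes (left) and LDL receptor family genes (right), 1 point per library, control in blue and labelled PELP1-KD in red, ordered by the control mean. PZP and A2ML1 have libraries at 0 and are not drawn, nor are C4A and C4B, whose exon length is summed over 6 sequences in the tables. A2M moves from between C3 and C5 to below C5, and LRP1 moves from beside LRP10 to above it.

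The relatives of A2M outside the 6 genes were lower as well, by smaller amounts. Their list and the gene lists below were chosen with earlier results of these data known. The shares called in them are therefore descriptions, and none is read as an excess over all tested genes. Of 5 superfamily genes counted, 4 were tested, and 4 were lower and 0 higher at an adjusted p of 0.05, beside 53.6% of all tested genes called and 26.8% called lower. C4A and C4B are near-identical copies that shared their reads, so this is 3 lower of 3. Their median log2 fold change was −0.82 with both copies and −0.43 with C4A and C4B counted once, against 0.0044 for all tested genes. C3, the central complement component, had a log2 fold change of −0.43 (SE 0.03, adjusted p = 7.23e-10, edgeR). C5, the precursor of the complement anaphylatoxin, had one of −0.10 (SE 0.04, adjusted p = 0.0264, edgeR). That call was lost without control replicate 1 (adjusted p = 0.103), control replicate 2 (0.115), PELP1-KD replicate 2 (0.0623) or PELP1-KD replicate 3 (0.0737, log2 fold change −0.06) in edgeR. C4A and C4B each had a log2 fold change of −1.21. They are named after their values were seen.

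Among the relatives of LRP1, some genes rose and some fell. Of 13 LDL receptor family genes tested, 6 were higher and 2 lower (61.5% called, near the 53.6% of all tested genes), with a median log2 fold change of 0.09 that was 0.16 without PELP1-KD replicate 1. SORL1, a sorting receptor, rose by 0.98 on the log2 scale (SE 0.06, adjusted p = 7.80e-11, edgeR). LRP4 and LRP2, the latter the kidney receptor megalin, rose by 0.65 (SE 0.06) and 0.51 (SE 0.05). LRP5, a WNT co-receptor, fell by 0.50 (SE 0.04, adjusted p = 4.12e-09, edgeR) and LRP11 fell by 0.31 (SE 0.04).

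The proteins that fold, cut, sort and bind LRP1 inside the cell were tested as 17 genes. Of these, 8 were higher and 7 lower (88.2% called, beside 53.6% of all tested genes). The median log2 fold change of the 17 was 0.03. It ran from 0.011 without control replicate 3 to 0.066 without PELP1-KD replicate 3. MAPK8IP2, a scaffold of JNK kinases that binds the LRP1 tail, had a log2 fold change of 0.82 (SE 0.11, adjusted p = 3.08e-06, edgeR). The adaptor genes GULP1 and DAB2 had log2 fold changes of 0.47 (SE 0.07) and 0.29 (SE 0.04). On the other side, DLG4 had −1.40 (SE 0.16), MAPK8IP1 had −0.70 (SE 0.09) and the adaptor SHC1 had −0.44 (SE 0.04, adjusted p = 4.89e-09, edgeR). Of 2 genes named after their values were seen, FURIN, whose protease cuts the LRP1 precursor, had a log2 fold change of 0.19 (adjusted p = 7.66e-05, edgeR). MESDC2, a second chaperone of LRP family receptors, had one of −0.13 (adjusted p = 0.0114, edgeR), close to the −0.14 of LRPAP1.

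Ligands of LRP1 other than A2M were more often lower than higher. Of 25 listed, 18 were tested, and 11 were lower and 4 higher (83.3% called, beside 53.6% of all tested genes). The median log2 fold change of the 18 was −0.20. The matricellular protein gene CTGF fell by 1.15 on the log2 scale (SE 0.04, adjusted p = 6.52e-15, edgeR), SERPING1 (C1 inhibitor) by 0.80 (SE 0.04) and THBS1 (thrombospondin) by 0.62 (SE 0.03). In the other direction PLAU, the gene of urokinase, rose by 1.04 (SE 0.09, adjusted p = 5.93e-09, edgeR), SERPINC1 (antithrombin) by 0.55 (SE 0.08) and FN1 (fibronectin) by 0.43 (SE 0.03). None of these 6 ligands had a log2 fold change as low as that of A2M.

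**Figure D3:**
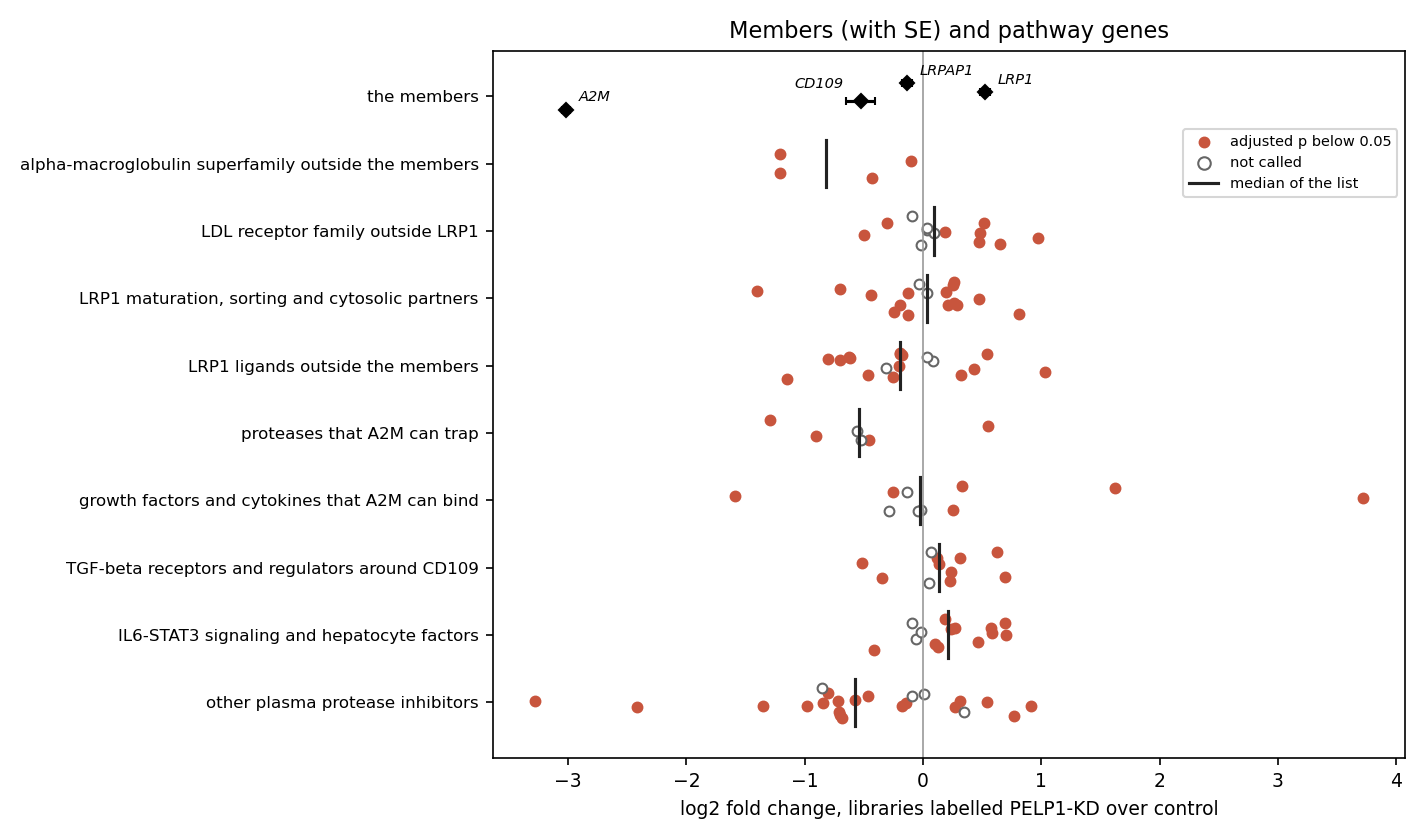
Log2 fold change (horizontal axis, libraries labelled PELP1-KD over control) of the 4 tested family and receptor genes, with SE bars on black diamonds, and of the tested genes of 9 pathway lists; filled points have an edgeR adjusted p below 0.05, open points do not, and vertical bars are list medians. A2M at −3.02 lies to the left of the superfamily genes, and the list of other plasma protease inhibitors has a median of −0.58.

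Few proteases that A2M can trap were expressed. Of 18 listed, 6 were tested, with 1 higher and 3 lower (66.7% called, 4 of 6, beside 53.6% of all tested genes). The 6 had a median log2 fold change of −0.54. PRSS3, a trypsinogen gene, had a log2 fold change of 0.55 (SE 0.05, adjusted p = 2.17e-08, edgeR), although trypsinogen genes are close copies and could share reads. F2, the prothrombin gene, had −0.46 (SE 0.04) and ADAMTS12, a metalloprotease gene, had −0.91 (SE 0.09, adjusted p = 7.82e-08, edgeR).

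A2M also binds growth factors and cytokines, and of 13 such genes 10 were tested, with 4 higher and 2 lower (60.0% called, near the 53.6% of all tested genes) and a median log2 fold change of −0.03, which was 0.08 without control replicate 1 and 0.0049 without PELP1-KD replicate 1. NTF3, a neurotrophin gene, had 10.7 ± 1.66 normalized reads in control and 143 ± 8.75 in the libraries labelled PELP1-KD (SD, n = 3), for a log2 difference of 3.72 (SE 0.20, adjusted p = 5.43e-12, edgeR). TGFB1, which encodes the TGF-beta ligand, went the other way, from 1858 ± 43.8 to 617 ± 56.7 normalized reads (log2 fold change −1.59, SE 0.06, adjusted p = 2.06e-14, edgeR). FGF2 had a log2 fold change of 0.33 (SE 0.09), VEGFA 0.25 (SE 0.05) and PDGFB −0.25 (SE 0.07).

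Around CD109, which binds TGF-beta and its receptors and directs them to caveolae, 11 of 12 genes were tested. Of these, 7 were higher and 2 lower (81.8% called, beside 53.6% of all tested genes), with a median log2 fold change of 0.14. CAV1, the caveolin of those vesicles, rose by 0.69 (SE 0.05, adjusted p = 1.32e-09, edgeR), SMAD3 by 0.31 (SE 0.04) and the ubiquitin ligase gene SMURF1 by 0.23 (SE 0.04). TGFBR2, the ligand-binding receptor, fell by 0.52 (SE 0.04, adjusted p = 1.02e-09, edgeR), and SMURF2, the other ligase that acts with CD109 on the receptor, fell by 0.35 (SE 0.08). TGFBR2 and CD109 had log2 fold changes of −0.52 and −0.53, but no other receptor gene of the list was called lower. A link between TGFBR2 and CD109 was not tested.

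In acute-phase responses of the liver, A2M is a target of IL6 and STAT3, most of all in the rat. Of 14 genes of that pathway and of hepatocyte transcription, 14 were tested, with 10 higher and 1 lower. The share called was 78.6%, beside 53.6% of all tested genes. The median log2 fold change of the 14 was 0.21, opposite in sign to that of A2M. IL6R, the receptor, rose by 0.69 (SE 0.05, adjusted p = 1.48e-10, edgeR), CEBPB, an acute-phase transcription factor, by 0.58 (SE 0.04) and JAK1, the receptor's kinase, by 0.46 (SE 0.03). STAT3, named after its values were seen, rose by 0.18 (adjusted p = 0.000127, edgeR).

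Other protease inhibitors, most but not all of them plasma proteins, were mostly lower. Of 23 tested, 14 were lower and 5 higher (82.6% called, beside 53.6% of all tested genes), with a median log2 fold change of −0.58. Some of the 23 are LRP1 ligands named above. KNG1 (kininogen) fell by 0.98 (SE 0.04, adjusted p = 2.71e-13, edgeR) and ITIH2, a heavy chain of inter-alpha-trypsin inhibitor, by 0.69 (SE 0.03). TFPI2 rose by 0.91 (SE 0.08) and TIMP3, an inhibitor of matrix metalloproteases, by 0.77 (SE 0.04, adjusted p = 4.43e-12, edgeR).

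None of the tested genes beside A2M on chromosome 12 was called lower. Of 13 genes within 500 kb of A2M, 8 were tested, with 5 higher and 0 lower. The share called was 62.5%, near the 53.6% of all tested genes, and the 8 had a median log2 fold change of 0.35. KLRG1, not called and named after its values were seen, had −0.45 (SE 0.30, adjusted p = 0.225, edgeR). The 5 higher genes were M6PR, the gene of a mannose-6-phosphate receptor (0.44, SE 0.04, adjusted p = 3.38e-09, edgeR), RIMKLB (0.41, SE 0.07), PHC1, a polycomb gene (0.39, SE 0.07), LOC642846 (0.31, SE 0.07) and DDX12 (0.21, SE 0.07, adjusted p = 0.0189, edgeR). The call of DDX12, a near copy of another helicase gene whose reads could be shared, was lost in edgeR without control replicate 2 (adjusted p = 0.117) or PELP1-KD replicate 1 (0.0965). The windows around PZP and A2ML1 cover much of the same stretch and had 5 and 4 higher and 0 lower of 10 and 7 tested. Over the whole chromosome 12, 292 of 800 tested genes were higher and 140 lower (54% called), with a median of 0.07.

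Around LRP1, 34 genes were tested within 500 kb, of which 17 were higher and 4 lower (61.8% called, near the 53.6% of all tested genes), with a median log2 fold change of 0.18. The 3 tested genes nearest to LRP1, named after their values were seen, did not all go one way. NXPH4, 3453 bases from LRP1, had a log2 fold change of 0.40 (SE 0.09, adjusted p = 0.000582, edgeR). SHMT2, at 16231 bases, had one of −0.27 (SE 0.04, adjusted p = 7.58e-06, edgeR), and STAT6, at 17086 bases, one of 0.53 (SE 0.05, adjusted p = 6.80e-08, edgeR). Around CD109, 1 of 5 tested neighbours was higher and 1 lower, and around LRPAP1 1 of 6 was higher and 3 lower.

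**Figure D4:**
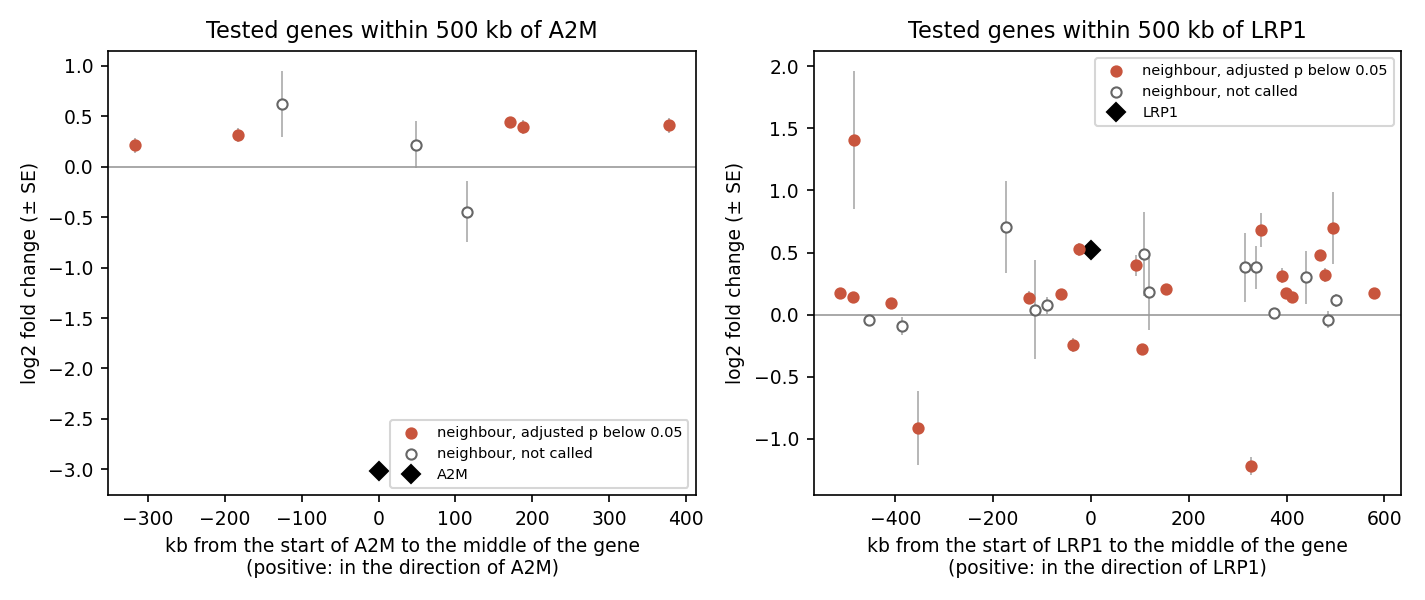
Log2 fold change with SE (vertical axis) of tested genes within 500 kb of A2M (left) and LRP1 (right) against the distance in kb from the start of A2M or LRP1 to the middle of each gene, positive in the direction of transcription; filled points have an edgeR adjusted p below 0.05, and the diamond is A2M or LRP1. The 5 called neighbours of A2M lie between 0.21 and 0.44, and A2M is at −3.02.

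The genes most like each of the 4 tested genes were found by the distance between their log2 normalized reads over the 6 libraries, each gene centred on its own control mean, among 11983 genes with at least 100 normalized reads in either group. Nearest to A2M was AHSG, the gene of the hepatocyte plasma protein fetuin-A, at a distance of 0.0412. AHSG had 28379, 28463 and 29308 normalized reads in control against 3333, 3613 and 3580 in the libraries labelled PELP1-KD, a log2 fold change of −3.03 beside the −3.02 of A2M. Next came MSN, which encodes the cytoskeletal linker moesin (distance 0.154, log2 fold change −3.09), and THBS4, a thrombospondin gene (0.236, −3.02). For LRP1 the nearest were RAB3IL1 (0.0272), GLYCTK (0.0395) and PTK2B (0.0404), with log2 fold changes of 0.53, 0.51 and 0.52. LRPAP1 was nearest to CNOT3 (0.0349), ILKAP (0.0379) and PPIL2 (0.0392), and CD109 to KIAA0020 (0.061), SEC24D (0.101) and FLRT2 (0.103). These distances describe likeness over the same 6 libraries. As each gene was centred on its control mean, the like log2 fold changes follow from how the genes were picked.

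A2M, LRP1 and CD109 are also made by stromal, endothelial and myeloid cells, and markers of such cells were looked up in this cell line. Of 5 endothelial markers, CDH5, KDR and TEK were at 0 in all libraries, and the summed level was 0.450 to 0.510 RPKM in control and 0.434 to 0.479 RPKM in the libraries labelled PELP1-KD. For 5 fibroblast and stellate markers, none at 0, the sums were 5.45 to 6.62 RPKM and 9.76 to 10.7 RPKM, mostly LUM, while PDGFRB had a log2 fold change of −2.13. For 6 macrophage markers, of which CD163 was at 0, they were 113 to 120 RPKM and 64.8 to 65.8 RPKM, nearly all from LYZ and CD68. These 2 went opposite ways, LYZ with a log2 fold change of −1.55 and CD68 with one of 0.48. The libraries were of cultured Hep3B cells and not of liver tissue, so these marker levels are those of the cell line. Any link between them and the values of A2M, LRP1 and CD109 was not tested.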

How the data were processed

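RNA-seq of Hep3B cells was analysed in 3 control libraries and 3 libraries labelled PELP1-KD, grouped by their labels. The authors deposited estimated counts per gene for each library, without normalization. Per the file headers these came from featureCounts 1.5.0-p1 on exons of hg19, by strand, with multi-mapping and overlapping reads shared as fractions, so 10.6% to 13.3% of values were not whole and near-identical copies are uncertain. The submitters' processing notes name HISAT2, whereas the methods text describes TopHat2 and HTSeq. The labels name TRIzol and a ribosomal RNA depletion kit, and the methods text another extraction and library kit.

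Counts were rounded to whole numbers and tested with edgeR 4.0.16 (TMM, filterByExpr, glmQLFit with robust estimation, glmQLFTest, R 4.3.3) on all 6 libraries, with Benjamini-Hochberg adjustment over 14537 genes and a threshold of 0.05. The procedure was checked on simulated counts. The median SE of a log2 fold change was 0.0632. Intervals and floors cover counting error only. The 6 genes and all lists were chosen with earlier results of these data known, so no p is given for the 6 genes. For the same reason the shares called in the lists are descriptions. Besides these and PELP1, the genes named were, of each list and direction, the 3 called genes with the smallest p whose higher group averaged 100 or more normalized reads, called genes within 500 kb of A2M, and the 3 nearest genes by pattern. Other genes are marked where they are named. A few list genes are counted in their lists but not reported here.

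Deviations from the group mean correlated between same-numbered libraries at 0.333, 0.242 and 0.665 over 6397 genes, all above 0.1. They also correlated at 0.418 between control 2 and PELP1-KD 1, and at 0.241 between control 1 and PELP1-KD 2. The correlations thus do not settle whether replicates 1 and 2 were pairs. The reported fit had no block, and the replicate number was used as a block only in an alternative fit. No 2 libraries of a group agreed within sampling noise (chi-square per degree of freedom 1.94 to 7.02). In 13 alternatives the data were refitted with upper-quartile scaling or the size factors of DESeq2 in edgeR, with DESeq2 1.42.0, with no filter, with at least 10 reads in every library, with counts not rounded, with the replicate block, and without each library in turn.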

Additional observations from a re-analysis of the deposited data

How the results depend on the processing

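Over the 13 alternatives the log2 fold change of A2M stayed between −3.04 and −2.99, that of CD109 between −0.56 and −0.49, that of LRP1 between 0.48 and 0.56 and that of LRPAP1 between −0.18 and −0.10, the ends of each range coming from leaving out 1 library. The number of genes called was 7788 and ranged from 6766 to 8828, the highest with the replicate block. With the replicate block A2M kept a log2 fold change of −3.02, and among the 58 named genes outside the family and receptor the block changed only the call of PELP1 (adjusted p = 0.0106, edgeR). Of 754 refits of these 58 genes, 738 kept the call and direction and 0 reversed. The 14 lost calls were those of C5, DDX12, ILKAP and PPIL2, and the 2 gained were of PELP1. Some list medians moved. That of the growth factors, −0.03, was 0.08 without control replicate 1 and 0.0049 without PELP1-KD replicate 1. That of the LDL receptor family, 0.09, was 0.16 without PELP1-KD replicate 1. That of the LRP1 partners, 0.034, was 0.011 without control replicate 3 and 0.015, 0.021 and 0.066 without PELP1-KD replicates 1, 2 and 3. Without the filter on low counts, which adds genes, that of the proteases was −0.09, that of the superfamily −0.43 and that of the growth factors −0.014. With at least 10 reads in every library, which removes genes, that of the other inhibitors was −0.325. PZP and A2ML1 had too few reads at this depth for a fold change.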
